A study of Homo sapiens with 20 samples.

Results

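The genes described here, called zinc finger genes below, are those whose symbols begin with ZNF, ZSCAN, ZFP, ZKSCAN or ZBTB followed by a digit. Most symbols of this kind belong to zinc finger transcription factors. They were chosen by symbol alone, from every gene listed in 7 tables of differential splicing events that the authors deposited. The rule found 267 of 7112 named genes (3.75%), with 853 of 26803 table entries and 564 of 19275 distinct events. Of these events 388 were exons, 63 were introns, 59 were alternative 3′ splice sites and 54 were alternative 5′ splice sites. By family, 222 genes were ZNF, 18 ZBTB, 12 ZSCAN, 9 ZFP and 6 ZKSCAN.

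RNA was sequenced as stranded polyA libraries from HEK293T, a transformed human embryonic kidney cell line, in 20 samples that form 10 groups of 2. MLN8237, an inhibitor of the mitotic kinase Aurora-A, was given for 24 hours and compared with its solvent DMSO. In other cells, siRNA transfected for 48 hours depleted SRSF1, SRSF2, SRSF7 or SF3B5, each compared with a non-targeting siRNA group called siNT1, or SRSF3 or RBM39, each compared with a separate non-targeting group called siNT2. SRSF1, SRSF2, SRSF3 and SRSF7 are SR proteins, which bind exons and promote their splicing, RBM39 is an SR-like splicing factor, and SF3B5 is a subunit of the branch point recognition complex SF3b. The labels place DMSO and MLN8237 in Set 1, and siNT1 with the depletions compared with it in Set 2. They place siNT2 with SRSF3 and RBM39 depletion in Set 3, and do not say what a set is. The values are percent spliced in (PSI), the percent of transcripts that hold a segment, as the authors' average over each group. Only these averages were given, so a PSI has no SD, the read depth is unknown, and no test over samples could be made. A loss or gain below means a lower or higher average PSI in the treated group, with no test behind it. Every listed event differed by more than 15 percentage points, and the smallest change among the zinc finger events was the 285-base exon of ZBTB46, at 84.98% after SRSF1 depletion and 100% in siNT1. Gene expression was not analysed here, so whether the depletions and the inhibition took effect and whether the cells carry the markers of their line was not checked, and the samples of a group may be technical repeats, since no label speaks of separate cultures.

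The C2H2 zinc finger is a short fold in which pairs of cysteines and histidines hold a zinc ion, and arrays of such fingers read DNA sequence. In most KRAB zinc finger genes the whole finger array is encoded by the last exon, and small exons before it encode the parts that act on transcription. The KRAB domain, with an A box and a B box in separate exons, recruits the co-repressor TRIM28 and through it histone methylation and silencing, chiefly at transposable elements. The SCAN domain of ZSCAN and ZKSCAN proteins and the BTB domain of ZBTB proteins join proteins into pairs. Skipping an early exon can therefore remove a domain or shift the reading frame ahead of the fingers.

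The label was checked on coding sequences. In GENCODE release 29 coding sequences, 252 of the 261 protein-coding members held at least 2 matches to the C2H2 pattern, with a median of 9, against 59 of 6501 other genes in the tables. The KRAB A box pattern was found in 118 members and in 3 other genes. The KRAB B box pattern was found in 43 members and in 1 other gene. Both were loosened after member exons were seen, so these KRAB counts are not an independent check. Members that lacked a pair of C2H2 patterns included ZBTB8OS, ZNF185, ZNF330, ZNF720, ZNF738 and ZNF839. The members that are not protein-coding were transcribed pseudogenes (ZNF252P, ZNF271P and ZNF767P) and non-coding RNA genes (ZNF213-AS1, ZNF561-AS1 and ZNF582-AS1). Of the 267 members, 77 (28.8%) lay on chromosome 19, against 350 of 6645 other genes (5.27%).

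A few exon lengths recurred. The most frequent length was 127 bases, which 18 of 388 distinct member exons had (4.64%, exact Clopper-Pearson 95% interval 2.77 to 7.23), against 77 of 14205 exons of other genes (0.542%). The next most frequent was 96 bases, with 14 member exons (3.61%, interval 1.99 to 5.98) against 151 exons of other genes (1.06%). Of the 127-base exons, 16 matched a single annotated exon of that length in GENCODE release 29 on GRCh38, all of them coding, and 15 held the KRAB A pattern. None of the 51 matched 127-base exons of other genes held it, but the pattern had been loosened after member exons were seen. Of the 96-base exons 12 matched and 6 held the KRAB B pattern, against 0 of 119 in other genes. Skipping a 127-base exon shifts the reading frame, and skipping a 96-base exon keeps it.

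**Figure D1:**
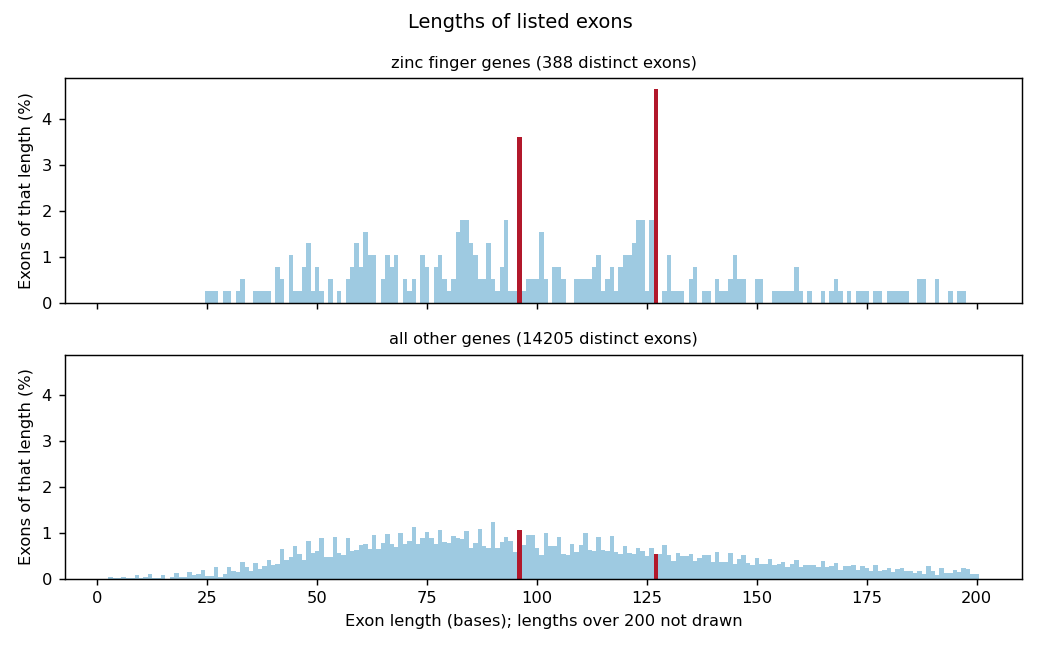
Length in bases (horizontal axis) of distinct listed exons of zinc finger genes (top, 388 exons) and of all other genes (bottom, 14205 exons), as the percent of exons with each length. The red bars mark 96 and 127 bases, at 3.61% and 4.64% in the zinc finger genes against 1.06% and 0.542% in all other genes.

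The exons that carry this pattern are printed here as coding sequence from GENCODE release 29 transcripts (GRCh38, the build hg38), 5′ to 3′. Their positions come from that annotation and not from the authors. In the 127-base exons the capitals mark the 13 codons of the KRAB A pattern, at bases 13 to 51 of the exon, and these exons are shown because they were listed in several depletions or changed most.
ZNF263, 127 bases, chr16:3286023-3286149, plus strand: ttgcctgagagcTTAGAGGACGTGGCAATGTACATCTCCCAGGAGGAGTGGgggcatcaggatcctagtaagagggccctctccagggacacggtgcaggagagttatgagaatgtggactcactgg
ZNF480, 127 bases, chr19:52314153-52314279, plus strand: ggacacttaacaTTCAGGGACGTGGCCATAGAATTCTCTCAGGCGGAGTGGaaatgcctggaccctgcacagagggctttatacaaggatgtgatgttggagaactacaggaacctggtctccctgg
ZNF708, 127 bases, chr19:21310501-21310627, minus strand: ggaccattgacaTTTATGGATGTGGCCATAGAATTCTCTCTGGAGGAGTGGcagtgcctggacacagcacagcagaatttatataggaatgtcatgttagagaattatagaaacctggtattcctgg
ZNF23, 127 bases, chr16:71454042-71454168, minus strand: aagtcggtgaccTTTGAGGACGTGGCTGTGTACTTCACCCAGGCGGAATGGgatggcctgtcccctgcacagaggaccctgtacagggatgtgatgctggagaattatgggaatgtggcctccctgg
ZNF655, 127 bases, chr7:99562368-99562494, plus strand: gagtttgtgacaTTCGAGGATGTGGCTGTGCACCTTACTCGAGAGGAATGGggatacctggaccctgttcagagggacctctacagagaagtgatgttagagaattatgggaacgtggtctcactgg
ZNF136, 127 bases, chr19:12185785-12185911, plus strand: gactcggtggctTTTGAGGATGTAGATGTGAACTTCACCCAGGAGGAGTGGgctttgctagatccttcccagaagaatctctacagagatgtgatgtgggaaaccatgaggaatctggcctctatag
In the 96-base exons the capitals mark the 8 codons of the KRAB B pattern, at bases 36 to 59.
ZNF569, 96 bases, chr19:37425868-37425963, minus strand: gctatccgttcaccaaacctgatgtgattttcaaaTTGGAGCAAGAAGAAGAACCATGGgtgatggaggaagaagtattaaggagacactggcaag
ZNF720, 96 bases, chr16:31723258-31723353, plus strand: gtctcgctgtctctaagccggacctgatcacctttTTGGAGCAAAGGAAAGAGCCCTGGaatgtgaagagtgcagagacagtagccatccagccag
ZNF607, 96 bases, chr19:37707914-37708009, minus strand: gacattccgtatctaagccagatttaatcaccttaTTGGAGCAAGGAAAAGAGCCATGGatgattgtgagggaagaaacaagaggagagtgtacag
The exon of ZNF35 with the widest MLN8237 change among these genes holds neither pattern.
ZNF35, 145 bases, chr3:44652557-44652701, plus strand: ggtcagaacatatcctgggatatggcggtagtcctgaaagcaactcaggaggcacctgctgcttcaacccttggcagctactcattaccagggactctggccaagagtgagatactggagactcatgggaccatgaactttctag

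Over all 7 tables, 18 exons in 18 genes held the KRAB A pattern and gave 28 entries, 22 lower and 6 higher. After SRSF1 depletion 7 of 7 listed KRAB A exons were lower, against 71.4% of all member exons and 62.6% of all exons in that table. The pattern was loosened after member exons were seen, and its exons were described after their values were seen. The counts by direction are therefore not a test. The ZNF263 exon was at 18.5% after SRSF1 depletion and 71.2% in siNT1, the largest change of the group. ZNF708 was at 40.8% after SRSF1 depletion against 77.7% in siNT1, and ZNF23 at 46.2% after SRSF1 depletion against 83.4% in siNT1. Smaller losses after SRSF1 depletion were listed for ZNF480, at 52.2% against 78.5% in siNT1, for ZNF394, at 55.7% against 76.6% in siNT1, and for ZNF786, at 41.1% against 59.7% in siNT1. The seventh was a 115-base exon of ZNF286A, at 78.4% after SRSF1 depletion and 100% in siNT1.

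The A box exons listed differed between depletions, and that of ZNF263 alone was listed after both SRSF1 and SRSF3 depletion. After SRSF2 depletion 4 of 5 KRAB A exons were lower, against 73.5% of all exons, after SRSF7 depletion 3 of 3, against 78.5%, and after RBM39 depletion 2 of 3, against 89.3%. After SRSF3 depletion 1 of 5 was lower, against 80.9% of all exons, and 4 were higher. These 5 exons were at 54.5% to 78.7% in siNT2. Of exons at 20% to 80% in siNT2, 49.1% of member exons and 66.6% of those of other genes were lower. The ZNF263 box was at 94.8% after SRSF3 depletion and 71.7% in siNT2. That of ZNF655 was at 88.2% after SRSF3 depletion against 65.7% in siNT2, and that of ZNF136 at 98.4% against 78.7% in siNT2. ZNF136 was higher after RBM39 depletion as well, at 95.96% against 78.7% in siNT2. The fourth was a 151-base exon of ZNF584, at 79.5% after SRSF3 depletion and 54.5% in siNT2, and the lower one was that of ZNF749, at 58.2% after SRSF3 depletion and 75.1% in siNT2. ZNF263 and ZNF655 were thus listed as higher after SRSF3 depletion but as lower after SRSF7 depletion. Depletion, control and labelled set cannot be told apart in this contrast, or in that between SRSF1 and SRSF3 depletion. After SRSF7 depletion ZNF263 was at 37.9% against 71.2% in siNT1, and ZNF655 at 47.9% against 63.8% in siNT1. In ZNF263 the siNT1 and siNT2 values lay close together, at 71.2% in siNT1 and 71.7% in siNT2.

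After SF3B5 depletion every listed box exon was lower, 5 of 5 with the A pattern and 7 of 7 with the B pattern, but so were 97.9% of all exons in that table. Among the A boxes ZNF480 was at 40.7% after SF3B5 depletion and 78.5% in siNT1, ZNF140 at 73.1% against 100% in siNT1 and ZNF559 at 52.3% against 74.5% in siNT1. Among the B boxes ZNF569 was at 51.01% after SF3B5 depletion and 93.2% in siNT1, and the 93-base exon of ZNF585B at 64.8% against 100% in siNT1. The B boxes gave 9 exons and 14 entries, 11 lower and 3 higher. ZNF607 gave both of the higher B box entries against siNT1. Its 96-base B box was at 97.8% after SRSF1 depletion and 97.4% after SRSF2 depletion against 81.1% in siNT1, and its 127-base A box at 100% after SRSF2 depletion and 84.1% in siNT1. The same B box was lower at 71.9% after RBM39 depletion against 87.6% in siNT2.

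**Figure D2:**
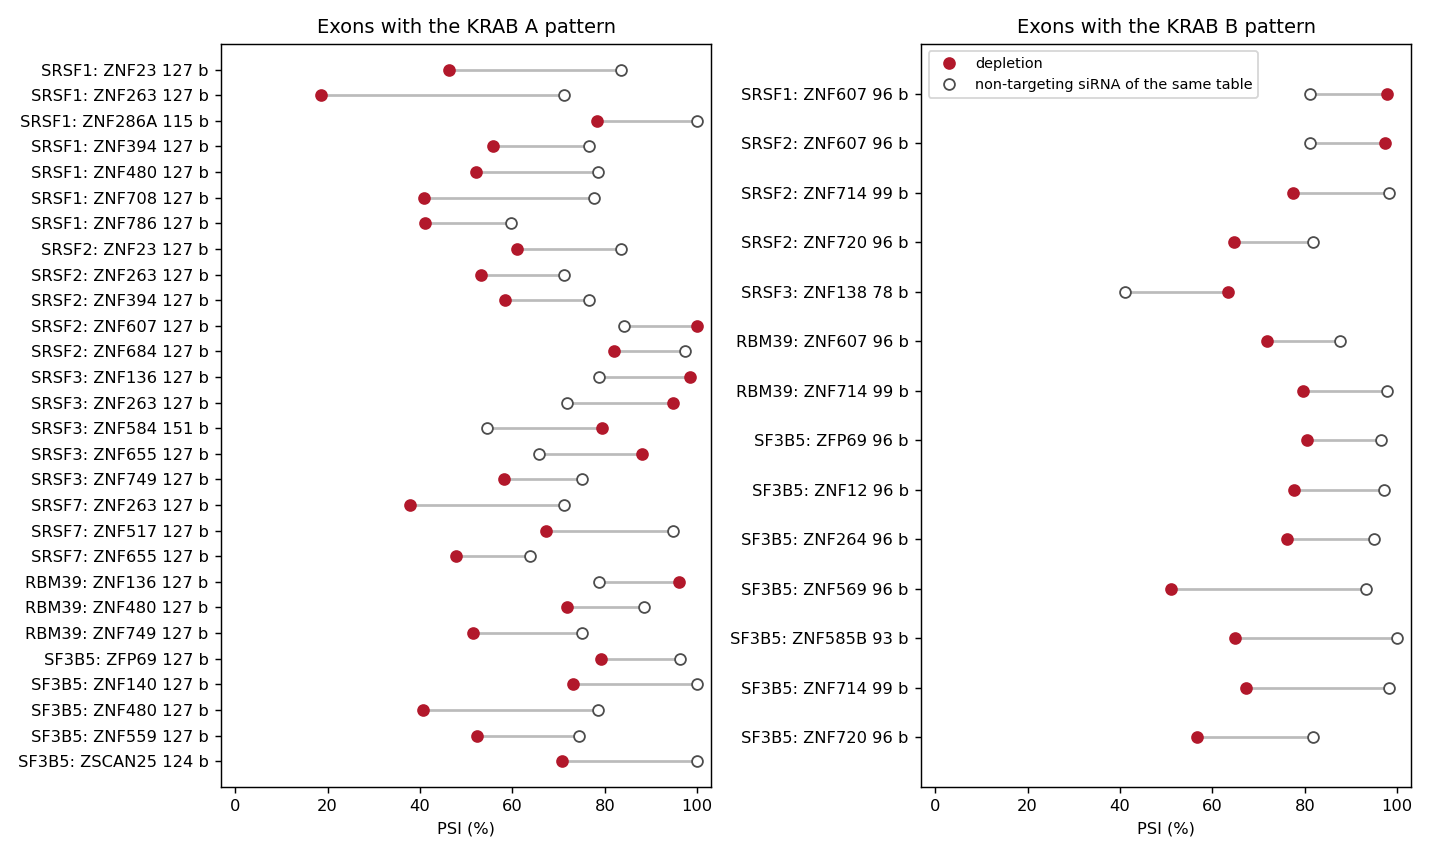
PSI in percent (horizontal axis) of every listed exon with the KRAB A pattern (left, 28 entries) or the KRAB B pattern (right, 14 entries), by depletion and gene, with the exon length in bases. Filled points are depletions and open points are the non-targeting siRNA group of the same table. The A box exons lay to the left of their controls in 7 of 7 entries after SRSF1 depletion and to the right in 4 of 5 after SRSF3 depletion. SRSF1 and SRSF3 depletion also differ in control and labelled set, and the patterns were loosened after member exons were seen.

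Not every exon of these lengths held a matched pattern. A 127-base exon of ZNF215, which could not be matched to a single annotated exon, was listed in 5 tables and was lower in each. It was at 43.1% after SRSF1 depletion, 36.9% after SRSF2 depletion, 48.9% after SRSF7 depletion and 32.3% after SF3B5 depletion, against 86.5% in siNT1. Against the other control it was at 53.3% after RBM39 depletion and 84.1% in siNT2. The 127-base exon of ZNF232 (chr17:5108926-5109052, minus strand) is coding without the pattern and was at 53.2% after SF3B5 depletion and 89.9% in siNT1. Of the 96-base exons without the pattern, that of ZNF317 (chr19:9157980-9158075, plus strand) was at 25.5% after SRSF1 depletion and 14.7% after SF3B5 depletion against 66.2% in siNT1. It was at 51.4% after SRSF3 depletion and 51.8% after RBM39 depletion against 74.6% in siNT2, so all 4 listed values were lower. ZNF26 (chr12:133007437-133007532, plus strand) was at 38.7% after SF3B5 depletion and 95.1% in siNT1, and ZNF800 at 52.02% against 89.9% in siNT1.

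Beyond the boxes, the listed exons of zinc finger genes were more often non-coding or untranslated than those of other genes. A single annotated exon of the listed length was found for 282 of 388 member exons (72.7%) and for 10639 of 14205 other exons (74.9%). Of the matched member exons 169 (59.9%) were coding, 50 (17.7%) partly coding and 63 (22.3%) non-coding or untranslated. In other genes 86.6% were coding, 5.97% partly coding and 7.43% non-coding or untranslated. Exons called untranslated below are of this last class, which includes exons found only in non-coding transcripts. Of 154 coding member exons in transcripts with fingers, 110 (71.4%) ended before the first finger, against 77 of 153 (50.3%) in other genes. In the members 140 of the 169 coding exons held no start of a finger. Only internal exons were matched, so last exons, which often hold the fingers, could not be counted. A length that is a multiple of 3, which keeps the reading frame, was found in 150 of 388 member exons (38.7%) and in 41.5% of other exons. Members share sequence with paralogs: 11 of 258 matched exons of at least 50 bases shared a 50-base stretch with another gene that does not overlap them, and the authors' counting could split reads between such copies.

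Few zinc finger events were listed for MLN8237, 19 in 18 genes, but these genes formed 9.28% of the 194 genes in its table (interval 5.59 to 14.3). Of the members 6.74% were listed, against 2.73% of all genes of the tables. In each depletion table the members' share of the genes was between 2.97% and 4.64%. With MLN8237 2 of 11 member exons were lower (18.2%), against 48.8% of all exons in that table. The 145-base exon of ZNF35 printed above was at 27.9% with MLN8237 and 100% with DMSO. In siNT1, which received no inhibitor, that exon was at 64.6%, 35.4 points below DMSO, and it was at 16.2% after SRSF2 depletion. The other lower exon was a 78-base coding exon of ZNF692 (chr1:248855558-248855635, minus strand), at 71.5% with MLN8237 and 87.8% with DMSO.

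The 9 higher exons under MLN8237 all moved less than the ZNF35 exon, and 4 of them more than that of ZNF692. Neighbouring coding exons of ZSCAN20, of 77 bases (chr1:33489115-33489191, plus strand) and 85 bases (chr1:33489518-33489602, plus strand), were both higher. The 77-base exon was at 55.1% with MLN8237 and 33.7% with DMSO, and the 85-base exon at 66.8% with MLN8237 and 47.4% with DMSO. A 124-base coding exon of ZSCAN32 was at 68.8% with MLN8237 and 49.3% with DMSO, and a 41-base exon of ZNF521, a cofactor of blood cell development, at 88.03% with MLN8237 and 70.7% with DMSO. ZNF12, a KRAB repressor gene, had a partly coding 65-base exon at 92.3% with MLN8237 and 76.5% with DMSO. In the siRNA controls that exon was higher still, at 98.3% in siNT1 and 100% in siNT2, so DMSO stood apart from both. Coding and untranslated exons both appear among the rest. An untranslated 104-base exon of ZNF26 was at 53.6% with MLN8237 and 38.2% with DMSO, and a coding 84-base exon of ZNF570 at 77.02% with MLN8237 and 61.3% with DMSO. A 116-base exon of ZNF605 was at 33.2% with MLN8237 and 17.3% with DMSO, and an untranslated 114-base exon of ZNF516, nearly absent with DMSO, was at 17.1% with MLN8237 and 1.54% with DMSO.

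The other 8 MLN8237 events were alternative splice sites. The tables list alternative sites only where they were used more in the treated group, in all 2529 entries, and a direction cannot be read from them. The widest gains were a 5′ site of ZNF512B, at 40.2% with MLN8237 and 14.5% with DMSO, and a 3′ site of ZNF557, at 45.4% with MLN8237 and 21.3% with DMSO. A 5′ site of ZBTB25, unused with DMSO, was at 20.4% with MLN8237 and 0% with DMSO, and one of ZNF81 at 56.8% with MLN8237 and 36.4% with DMSO. The 3′ sites of ZNF18, ZFP14, ZFP69 and ZNF250 lay between 44.7% and 75.1% with MLN8237 and between 28.1% and 60% with DMSO.

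Of the exons that moved with MLN8237, 4 were also listed after RBM39 depletion, with a control that is not shared, and all 4 were higher with MLN8237 and lower after RBM39 depletion. In other genes 37 exons or introns were listed in both of these tables, and 14 of them were higher with MLN8237 and lower after RBM39 depletion. In ZSCAN20 the 77-base exon was at 16.4% after RBM39 depletion and 38% in siNT2, and the 85-base exon at 29.2% after RBM39 depletion and 66.4% in siNT2. The exon of ZSCAN32 was at 39.99% after RBM39 depletion and 62.2% in siNT2, and that of ZNF12 at 82.5% after RBM39 depletion and 100% in siNT2. The controls of these exons were not level. For the 85-base exon of ZSCAN20 the siNT2 value was 19.02 points above that in DMSO, about as far as the MLN8237 change itself. In ZSCAN32 the siNT2 value lay 12.9 points above that in siNT1.

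**Figure D3:**
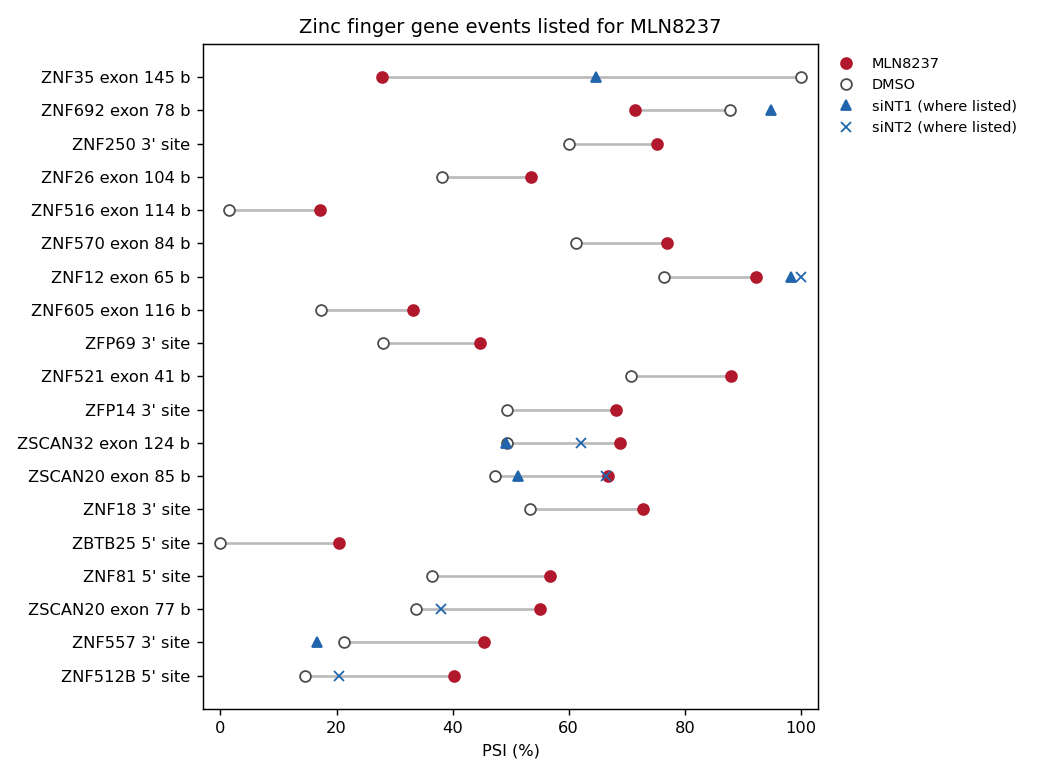
PSI in percent (horizontal axis) of the 19 zinc finger gene events listed for MLN8237, with MLN8237 as filled and DMSO as open circles. Triangles and crosses give the same event in siNT1 and siNT2 where a depletion table lists it. The ZNF35 exon was at 27.9% with MLN8237, 100% with DMSO and 64.6% in siNT1.

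Among the depletions, the share of zinc finger exons that were lower lay furthest from that of all exons after SRSF3 depletion, and its interval left out the value over all exons after SRSF3 and SF3B5 depletion. After SRSF3 depletion 66 of 115 member exons were lower (57.4%, interval 47.8 to 66.6), against 80.9% of all exons in the table. The remaining 49 member exons were higher. Near-constitutive exons can only be listed as lower, and the member exons had a lower median PSI in siNT2, 62.2% against 89.8% for exons of other genes. Either direction could be listed for exons at 20% to 80% in siNT2. Of these, 28 of 57 member exons were lower (49.1%, interval 35.6 to 62.7), against 66.6% of those of other genes. The SRSF3 table listed 130 zinc finger genes, 48.7% of the members, against 39.4% of all genes.

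After the depletions of SRSF1, SRSF2 and SRSF7 the interval of the members' share held the value over all exons. After SRSF1 depletion 50 of 70 member exons were lower (71.4%, interval 59.4 to 81.6), against 62.6% of all exons. Among exons at 20% to 80% in siNT1, 30 of 44 member exons were lower (68.2%, interval 52.4 to 81.4). That interval left out the 49.5% of other genes. After SRSF2 depletion 46 of 70 member exons were lower (65.7%), against 73.5% of all exons, and after SRSF7 depletion 32 of 45 (71.1%), against 78.5%. The intervals were 53.4 to 76.7 after SRSF2 depletion and 55.7 to 83.6 after SRSF7 depletion. The SRSF1 table listed 74 zinc finger genes (27.7% of the members against 22.4% of all genes), that of SRSF2 listed 76 (28.5% against 27.1%) and that of SRSF7 listed 55 (20.6% against 19.7%).

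After RBM39 depletion 90 of 106 member exons were lower (84.9%), against 89.3% of all exons, and after SF3B5 depletion 201 of 214 (93.9%, interval 89.8 to 96.7), against 97.9%. The RBM39 table listed 112 zinc finger genes, 41.9% of the members against 36.5% of all genes. The SF3B5 table listed 150 zinc finger genes, 56.2% of the members against 71% of all genes. Its member exons had a median PSI of 92.1% in siNT1, against 97% for exons of other genes. Among exons at 20% to 80% in siNT1, 58 of 66 member exons were lower after SF3B5 depletion (87.9%, interval 77.5 to 94.6). That interval held the 94.4% of other genes. These counts treat exons as units, which are not replicates, and several come from the same gene.

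**Figure D4:**
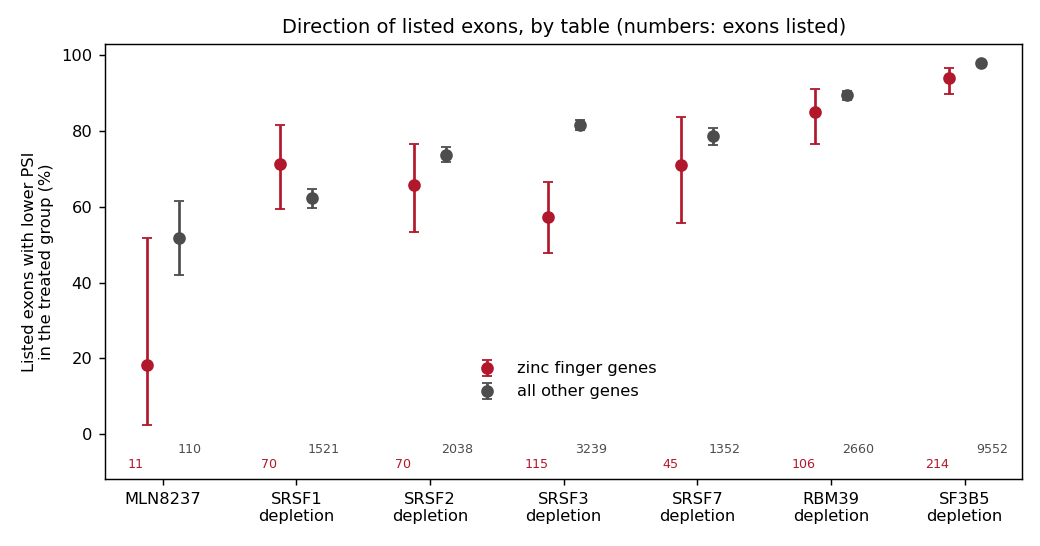
Percent of listed exons with lower PSI in the treated group (vertical axis) in zinc finger genes (red, left of each pair) and in all other genes (grey), by table. Points are shares with exact 95% intervals, which cover counting only, and the numbers above the axis are exons listed. The zinc finger share was 57.4% of 115 exons after SRSF3 depletion and 93.9% of 214 after SF3B5 depletion.

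Several of the deepest losses after SRSF1 and SRSF2 depletion were in coding or partly coding exons. A 130-base coding exon of ZNF641 (chr12:48345345-48345474, minus strand) was at 8.45% after SRSF1 depletion and 80.1% in siNT1. A 529-base partly coding exon of ZNF75D (chrX:135293730-135294258, minus strand) was at 9.59% after SRSF2, 33.2% after SRSF1 and 34.7% after SRSF7 depletion, against 77.98% in siNT1. A 494-base exon of ZNF397 (chr18:35242391-35242884, plus strand) was at 26% after SRSF2, 35.1% after SRSF1, 50.5% after SRSF7 and 59.1% after SF3B5 depletion, against 81.5% in siNT1. Both long exons were thus listed as lower in each siNT1 table that listed them. A 259-base exon of ZNF444 was at 38.8% after SRSF2 depletion and 99.7% in siNT1, and a 150-base coding exon of ZNF740 at 34.96% after SRSF2 depletion and 94.5% in siNT1.

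Large losses after SRSF3 depletion included exons present in nearly every transcript of siNT2. A 334-base coding exon of ZNF362 (chr1:33280124-33280457, plus strand) was at 36.4% after SRSF3 depletion and 97.96% in siNT2, and a 197-base coding exon of ZNF341, a regulator of STAT3 expression, at 38.4% after SRSF3 depletion and 97.3% in siNT2 (chr20:33745103-33745299, plus strand). ZNF76, related to the promoter-binding factor ZNF143, had a 180-base exon that holds fingers at 53.4% after SRSF3 depletion and 100% in siNT2 and a 135-base exon at 25.99% after SRSF3 depletion and 67.8% in siNT2. Exons of ZNF142, of 79 and 168 bases, were lower in each of the 4 tables that listed them. The 79-base exon was at 9.49% after SRSF3 depletion and 56.1% in siNT2, and at 15.7% after SRSF1 depletion and 62.9% in siNT1. The 168-base exon was at 6.58% after SRSF3 depletion and 34.6% in siNT2, and at 11.6% after SRSF1 depletion and 47.6% in siNT1.

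Gains of similar size were listed after SRSF3 depletion. A 33-base untranslated exon of ZNF589 (chr3:48257929-48257961, plus strand) was at 97.7% after SRSF3 depletion and 34.7% in siNT2, and at 8.26% after RBM39 depletion, which shares that control. A 109-base untranslated exon of ZNF79 was at 53.2% after SRSF3 depletion and 8.29% in siNT2, and a 1032-base exon of ZBTB8B at 95.02% after SRSF3 depletion and 51.02% in siNT2. Several exons that were higher after 1 depletion were lower after another. ZNF211 had an 86-base exon at 70.5% after SRSF2 depletion and 34.3% in siNT1, but at 17.5% after SRSF3 depletion and 44.9% in siNT2. ZNF654 had an 83-base exon at 80.5% after SRSF1 depletion and 45.5% in siNT1, but at 27.9% after SRSF3 depletion and 64.2% in siNT2. An untranslated 151-base exon of ZNF518A was at 69.96% after SRSF7 depletion and 36.5% in siNT1, but at 13.2% after RBM39 depletion and 37.9% in siNT2. The depletions contrasted for ZNF211, ZNF654 and ZNF518A also differ in control and labelled set. The gains of ZNF195, in a 57-base exon at 64.3% after SRSF2 depletion and 25.3% in siNT1, and of ZNF343, in a 123-base coding exon at 54.1% after SRSF7 depletion and 22.9% in siNT1, had no such counterpart.

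The deepest losses after RBM39 and SF3B5 depletion were in short exons. A 62-base untranslated exon of ZNF266 (chr19:9434798-9434859, minus strand) was at 10.2% after SF3B5 depletion and 86.4% in siNT1, and at 37.8% after RBM39 depletion and 79.3% in siNT2. After SF3B5 depletion a 57-base partly coding exon of ZNF140 was at 23.5% against 96.1% in siNT1, and the 65-base exon of ZNF12 at 26.2% against 98.3% in siNT1. A 44-base coding exon of ZNF618 was at 22.7% after SF3B5 depletion and 89.9% in siNT1, and an 84-base exon of ZNF236 at 33.1% after SF3B5 depletion and 100% in siNT1. All of these were included in most transcripts of siNT1. After RBM39 depletion a 59-base exon of ZNF782 was at 43.8% against 85.99% in siNT2, and a 62-base exon of ZNF227 at 25.2% against 66.9% in siNT2. RBM39 and SF3B5 depletion have separate controls and shared 53 member exons and introns, 41.7% of the RBM39 list and 22% of the SF3B5 list. Of these 46 were lower and 4 higher after both, so that 94.3% had the same direction, against 95.8% of 1473 shared events of other genes.

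After SF3B5 depletion 13 of 214 member exons were higher, against 202 of 9766 exons of all genes. In ZNF75D a 155-base exon was at 96.1% after SF3B5 depletion and 56.7% in siNT1, in ZNF354A a 104-base exon at 55.98% after SF3B5 depletion and 15.6% in siNT1, and in ZNF618 a 63-base coding exon at 68.7% after SF3B5 depletion and 31.5% in siNT1. The ZNF618 exon was also higher at 60.1% after RBM39 depletion against 30.2% in siNT2. In ZNF618, then, the 44-base exon was lower and the 63-base exon higher after the same depletion. Other gains after RBM39 depletion were a 400-base exon of ZNF324B, at 61.1% against 29.8% in siNT2, and a 253-base exon of ZSCAN26, at 72.2% against 39.4% in siNT2.

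SCAN domain genes showed some of the widest opposite values. ZSCAN23 had 3 listed exons. Its partly coding 485-base exon (chr6:28435859-28436343, minus strand) was at 14.9% after SRSF1, 9.07% after SRSF2 and 44.7% after SRSF7 depletion, against 76.6% in siNT1. It was at 83.6% after SRSF3 and 89.7% after RBM39 depletion, against 62.9% in siNT2. The siNT1 and siNT2 values were 13.6 points apart. The exon was lower than its control in 3 tables, all with siNT1, and higher in 2, both with siNT2. Depletion, control and labelled set cannot be told apart in this split. With listed changes of more than 15 points from these controls, the lower and higher values could not overlap. Its other listed exons were split in the same way. The 110-base exon was at 19.5% after SRSF1 and 38% after SRSF7 depletion against 61.5% in siNT1, and at 73.1% after SRSF3 and 62.7% after RBM39 depletion against 46.6% in siNT2. The 627-base exon was at 50.8% after SRSF1 and 48% after SRSF7 depletion against 67.9% in siNT1, and at 76.1% after SRSF3 depletion and 53.8% in siNT2.

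In ZSCAN20 the 85-base exon was at 87.9% after SRSF2 and 13.3% after SF3B5 depletion, against 51.3% in siNT1. In ZSCAN25 an 85-base untranslated exon (chr7:99619048-99619132, plus strand) was lower in all 3 tables that listed it. It was at 43.6% after SRSF2 and 19.5% after SF3B5 depletion against 82.8% in siNT1, and at 40.2% after RBM39 depletion and 82.2% in siNT2. A 159-base exon of ZSCAN32 was at 29.5% after SRSF1 and 18.8% after SF3B5 depletion against 56.1% in siNT1. ZKSCAN3, a repressor of autophagy genes, had a 364-base exon at 69.8% after SRSF1, 73.8% after SRSF7 and 65.9% after SF3B5 depletion against 89.1% in siNT1. A 133-base exon of ZKSCAN5 was lower after SRSF2 depletion, at 16.4%, and higher after SRSF7 depletion, at 57.9%, against 42.4% in siNT1.

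Among genes with a ZBTB symbol, 16 of 16 listed exons were lower after SF3B5 depletion, against 97.9% of all exons. They include exons of ZBTB8OS, which lacks a pair of C2H2 patterns, and BTB domains were not searched for. ZBTB17 encodes MIZ-1, a partner of MYC, and its 121-base exon was at 45.2% after SF3B5 depletion and 96.4% in siNT1 and at 75.9% after SRSF3 depletion and 95.8% in siNT2. ZBTB49 had an 83-base exon at 14.98% after SF3B5 depletion and 79.8% in siNT1 and a 162-base exon at 28.1% after SF3B5 depletion and 79.8% in siNT1. ZBTB24, mutated in an immunodeficiency syndrome, had a 168-base exon at 30.9% after SF3B5 depletion and 80.1% in siNT1 and at 58.03% after RBM39 depletion and 83.2% in siNT2. ZBTB48, which binds telomere repeats, had a 242-base exon at 45.8% after SRSF2 depletion and 90.8% in siNT1. In the SRSF3 and RBM39 tables the same exon was at 64.1% after SRSF3 and 69.2% after RBM39 depletion against 86.9% in siNT2. ZBTB33, or Kaiso, a reader of methylated DNA, had a 102-base exon that was higher, at 27.5% after SRSF3 depletion and 11.3% in siNT2.

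Some members are known for work other than transcription. Of 25 on a list for these, 11 had an event, against 42.8% of the 608 protein-coding genes under the symbol rule in RefSeq. ZNF207 encodes BuGZ, which binds BUB3 at kinetochores. Its 48-base coding exon (chr17:32361468-32361515, plus strand) was at 40.6% after RBM39 and 66.5% after SRSF3 depletion against 84.5% in siNT2, and at 51.1% after SF3B5 and 65.9% after SRSF2 depletion against 87.7% in siNT1. The 48-base exon was thus lower in all 4 tables that listed it. ZNF638, a nuclear RNA- and DNA-binding protein, had a 105-base exon at 41.4% after SF3B5 depletion and 92.2% in siNT1. Its exons of 101 and 252 bases, included in a minority of transcripts in siNT2, were higher instead. The 101-base exon was at 36.8% after SRSF3 and 34.9% after RBM39 depletion against 13.3% in siNT2. The 252-base exon was at 43.4% after SRSF3 and 38.5% after RBM39 depletion against 15.8% in siNT2. ZNF598, a ubiquitin ligase that senses collided ribosomes, had a 157-base coding exon at 63.7% after SRSF3 depletion and 98.9% in siNT2 and a 134-base intron at 26.02% after SRSF3 depletion and 3.73% in siNT2. ZNF346, which binds double-stranded RNA, had a 3′ site at 58.3% after SF3B5 depletion and 17.6% in siNT1. A 3′ site of ZNF106 was at 98.6% after SRSF1 depletion and 69.7% in siNT1. The list also held ZNF148, though it is a transcription factor of GC-rich promoters. Its 5′ site was at 38.5% after SRSF3 depletion and 9.65% in siNT2.

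Some events recurred: 22 were listed in 4 of the tables and 4 in 5 of them (3.9% and 0.709% of the members' events, against 2.28% and 0.524% of those of other genes), with controls shared among tables. ZNF195 had a 147-base coding exon (chr11:3361743-3361889, minus strand) at 85.8% after SRSF2 and 79.9% after SRSF7 depletion but 29.5% after SRSF1 depletion, against 52.01% in siNT1. It was at 31.2% after SRSF3 and 20.1% after RBM39 depletion, against 55.3% in siNT2, close to the siNT1 value. The direction therefore differed among SR proteins. The 155-base exon of ZNF75D was at 29.7% after SRSF2 and 29.9% after SRSF7 depletion but at 73.9% after SRSF1 depletion, against 56.7% in siNT1. A 106-base coding exon of ZNF268 was at 73.9% after SRSF1 depletion but 16.8% after SRSF2 and 5.27% after SF3B5 depletion, against 40.03% in siNT1. In ZNF691 an untranslated 123-base exon, itself listed in 3 of the tables, was at 93.3% after SRSF1 depletion against 58.7% in siNT1, and at 24.5% after RBM39 and 41.6% after SRSF3 depletion against 59.3% in siNT2.

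Other repeated events showed the same mixture. An untranslated 61-base exon of ZNF280B was at 97.7% after SRSF1 and 92.2% after SRSF2 depletion but 26.5% after SF3B5 depletion, against 75.7% in siNT1. A 110-base exon of ZNF721 was at 65.4% after SRSF1 and 57.6% after SRSF7 depletion but 18.02% after SF3B5 depletion, against 36.4% in siNT1. An untranslated 63-base exon of ZNF559 was at 86.7% after SRSF3 but 18.01% after RBM39 depletion, against 57.4% in siNT2. Exons of ZNF621, ZNF707, ZNF821 and ZNF146 were lower in all 4 tables that listed each. The exon of ZNF707, of 98 bases, was at 3.63% after SRSF3 and 6.55% after RBM39 depletion against 28.03% in siNT2. SRSF1 and SRSF3 depletion have separate controls and shared 21 member exons and introns, 28.8% of the SRSF1 list and 16% of the SRSF3 list. Of these 9 were lower after both, 1 was higher after both and 11 went opposite ways, 6 of them lower after SRSF1 depletion. The direction was the same in 47.6% of them, against 60.3% of 406 shared events of other genes.

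**Figure D5:**
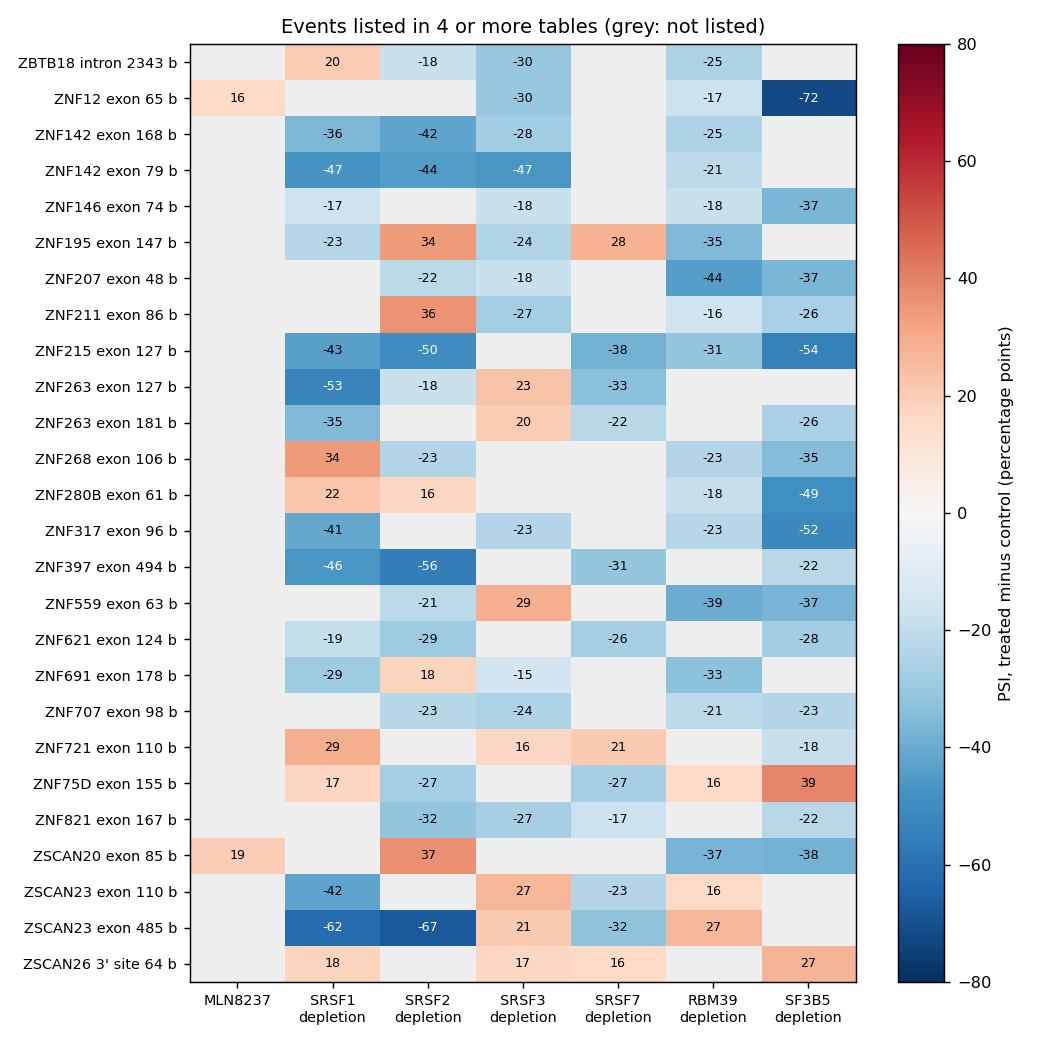
Change in PSI, treated minus control in percentage points (colour and printed numbers), of the 26 zinc finger gene events listed in 4 or more tables, one row for each event and one column for each table. Grey cells were not listed. The rows of ZNF195, ZNF75D and ZSCAN23 hold both signs, and the row of ZNF207 holds lower values only.

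Of the 564 distinct events of zinc finger genes 63 were introns, against 2539 of 18711 in other genes. The member introns had a median length of 1057 bases, against 374 bases for introns of other genes. After SF3B5 depletion 26 of 27 were higher, against 93.3% of all introns in the table, and after RBM39 depletion 19 of 21, against 89.5%. After SRSF3 depletion 11 of 16 were higher, against 54.7%. The counts after SRSF1 (3 of 3, against 66.8%), SRSF2 (2 of 5, against 79.4%) and SRSF7 depletion (4 of 7, against 71%) were small. A 140-base intron of ZNF764 (chr16:30557847-30557986, minus strand) was at 59.8% after SF3B5 depletion and 25.1% in siNT1, and a 155-base intron of ZNF629 at 50.7% after SF3B5 depletion and 18.6% in siNT1. An 11011-base intron of ZNF41 was at 56.2% after RBM39 depletion and 25.9% in siNT2, and a 1424-base intron of ZNF738 at 72.9% after RBM39 depletion and 39.7% in siNT2.

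Introns that were retained less were also found. A 432-base intron of ZNF559 was at 38.9% after SRSF3 depletion and 74.8% in siNT2, a 400-base intron of ZNF202 at 3.31% after SRSF2 depletion and 31.5% in siNT1 and a 666-base intron of ZNF205 at 17.5% after SRSF7 depletion and 43.9% in siNT1. After SRSF7 depletion a 1532-base intron of ZNF668 was higher, at 38.6% against 12.5% in siNT1. After SRSF1 depletion a 1169-base intron of ZNF512B was at 27.2% against 9.87% in siNT1. The 2343-base intron of ZBTB18, a neural repressor gene, (chr1:244051445-244053787, plus strand) was at 98.3% after SRSF1 but 60.3% after SRSF2 depletion, against 78.1% in siNT1. It was at 40.3% after SRSF3 and 45.3% after RBM39 depletion, against 70.6% in siNT2. A 2526-base intron was also listed for ZNF213-AS1, an antisense RNA gene, at 54.01% after SRSF2 depletion and 22.7% in siNT1, though whether reads were counted by strand is not given in the sources used here.

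Alternative sites made up 143 of the 853 entries of zinc finger genes, against 2529 of 26803 entries of all genes. The 143 entries lay in 86 zinc finger genes, with a median gain of 20.4 points and a largest gain of 48.8 points. Of the 59 distinct 3′ sites 9 had a listed length of 3 bases (15.3%), against 3.11% of the 3′ sites of other genes. The widest gain was a 3′ site of ZNF580, at 96.3% after RBM39 depletion and 47.5% in siNT2. In ZNF37A a 3′ site was at 68.7% after SRSF2 and 73.99% after SF3B5 depletion, against 25.99% in siNT1. In ZNF232 a 5′ site was at 61.9% after SRSF7 depletion against 16.95% in siNT1, and in ZBTB8A a 3′ site at 58.3% after SRSF1 depletion against 28.3% in siNT1. After SRSF3 depletion a 3′ site of ZNF236 was at 51.4% against 8.53% in siNT2. A 3′ site of ZSCAN26 was listed in 4 tables, at most 33.3% after SF3B5 depletion against 5.95% in siNT1.

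Events were spread over many genes, and 120 of the 267 had a single event. ZNF45 and ZNF692 had the most, with 8 distinct events each, and ZNF75D had 6 with 13 entries. In ZNF45 an 83-base exon was at 58.8% after SRSF1 and 50.7% after SF3B5 depletion against 93.3% in siNT1, and an untranslated 119-base exon at 21.96% after RBM39 depletion and 49.6% in siNT2. In ZNF692 the listed exons were coding and lower in every table that listed them. Its 264-base exon was at 62.8% after SRSF3 depletion and 100% in siNT2, its 135-base exon at 46.2% after SF3B5 depletion and 95.2% in siNT1 and its 100-base exon at 46.3% after SF3B5 depletion and 96.6% in siNT1. An 89-base intron of ZNF692 that adjoins the 78-base exon was retained less, at 34.7% after SRSF2 depletion and 57.5% in siNT1.

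Genes of the silencing machinery that the KRAB domain recruits were also listed. Of 44 genes of the co-repressor pathway, 29 had an event in any table, against 34.2% of all 20056 protein-coding genes of RefSeq, whether or not HEK293T cells express them. After SF3B5 depletion 59 of 60 of their exons were lower, against 97.9% of all exons, and after SRSF3 depletion 22 of 25, against 80.9%. HDAC1, a histone deacetylase, had a 93-base exon at 32.2% after RBM39 depletion and 96.1% in siNT2. ATF7IP, the partner of the methyltransferase SETDB1, had a 639-base exon at 37.7% after SRSF3 depletion and 100% in siNT2. The exon of HDAC1 and that of ATF7IP were included in nearly every transcript of siNT2. EHMT1, which methylates histone H3, had a 64-base exon at 22.02% after SF3B5 depletion and 81.9% in siNT1. FAM208A, also called TASOR, a part of the HUSH silencing complex, had a 3′ site at 79.4% after SRSF2 depletion and 20.9% in siNT1. A 1055-base exon of the chromatin remodeller ATRX was at 47.3% after SF3B5 depletion and 98.9% in siNT1, and a 91-base exon of the maintenance methyltransferase DNMT1 at 44.97% after SF3B5 depletion and 95.7% in siNT1.

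C2H2 factors with other names served as a further comparison, and 49 of 128 had an event, against 34.2% of all protein-coding genes and 260 of 608 protein-coding genes under the symbol rule (42.8%). After SRSF3 depletion 45 of 47 of their exons were lower, against 66 of 115 in the zinc finger genes named by the symbol rule and 80.9% of all exons. After SRSF1 depletion 4 of 10 were lower, against 50 of 70 in the symbol-rule genes and 62.6% of all exons. Neither count was matched for control PSI. The exons named below after SRSF3 depletion were at 92.4% or more in siNT2, where only a loss can be listed. The member exons of the SRSF3 table had a median of 62.2% in siNT2, and that of this list was not computed. KLF12, a KLF family repressor, had a 547-base exon at 11.7% after SRSF3 depletion and 98.9% in siNT2. CASZ1 had a 165-base exon at 23.5% after SRSF3 depletion and 92.4% in siNT2, GLI2, an effector of hedgehog signalling, a 214-base exon at 36.8% after SRSF3 depletion and 100% in siNT2, and PRDM6 a 607-base exon at 32.5% after SRSF3 depletion and 95.2% in siNT2. HIVEP1 and MYNN were lower after SF3B5 depletion, at 37.3% against 100% in siNT1 for HIVEP1 and 25.3% against 85.8% in siNT1 for MYNN. No test of the difference between these lists was made, and their genes were chosen with earlier results of these data known.

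The controls themselves differed for some zinc finger events. For the 122 member events listed with both siNT1 and siNT2, the median absolute gap was 3.91 points and the largest 18.7 points, in the 83-base exon of ZNF654, at 45.5% in siNT1 and 64.2% in siNT2. Gaps over 15 points were found in 6 of them (4.92%), against 2.97% of such events in other genes. Between DMSO and siNT1 the median gap was 5.82 points over 6 member events and 12 points over 47 events of other genes. Between DMSO and siNT2 it was 12.9 points over 5 member events and 8.46 points over 60 events of other genes. DMSO and the siRNA controls differ in agent, duration and labelled set, and the part of each in these gaps cannot be told apart. The siNT1 and siNT2 groups also differ in labelled set.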

How the data were processed

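Total RNA of HEK293T cells was sequenced as stranded polyA libraries in 20 samples, 2 for each of 10 groups, grouped by the labels. The authors deposited, for each of 7 comparisons, a table of splicing events with the average percent spliced in of both groups, and the submitters' processing notes name Bowtie, cutadapt and the build hg38. For the read depth, the tool versions and the listing rule nothing is given in the sources used here. The change was computed as treated minus control percent spliced in, and checked against the difference score in the authors' deposited tables. All values are group averages, so no p-value was computed. Shares of events carry exact Clopper-Pearson 95% intervals, which cover counting only, since events are not replicates.

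Events were placed on GRCh38 by matching their length to an internal exon or intron of the same gene in GENCODE release 29, and only where a single one had that length. Positions, coding status and sequences are therefore annotation and not the authors' coordinates. Patterns for the C2H2 finger, the KRAB A box (13 residues) and the KRAB B box (8 residues) were searched in translated coding sequences. The share of all protein-coding genes with an event was taken over RefSeq symbols and synonyms. Introns and genome sequence outside transcripts were not used here.

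The member genes and gene lists were chosen with earlier results of these data known, and the KRAB patterns were loosened after member exons were seen. Events named are all those of MLN8237, and in each depletion the 5 exons with the largest loss, the 3 with the largest gain, the 2 introns with the largest change and the alternative site with the largest gain. Also named are events in 4 or more tables, up to 8 with opposite directions, the 3 genes with most events, exons of the 2 most frequent lengths and up to 6 genes of each list. KRAB pattern exons and the further ZBTB, ZSCAN, ZKSCAN, ZNF45, ZNF692 and ZNF638 events were chosen after their values were seen. Scripts (Python 3.11.15, pandas 2.3.3, scipy 1.17.1, numpy 2.4.6, matplotlib 3.10.9) were tested on simulated data. Alternatives raised the change to 25 points, kept 1 event per gene or control values of 20 to 80, used current symbols, finger patterns, exons only or exons of at least 28 bases, and widened the length by 2 bases.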

Additional observations from a re-analysis of the deposited data

How the results depend on the processing

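Of 62 alternative values over 17 results, 57 stayed within the 95% counting interval of the reported value and 5 moved. One that stayed within it still turned the majority: with control values of 20 to 80, 28 of 57 member exons were lower after SRSF3 depletion (49.1%), against 57.4% as reported. With changes of at least 25 points, the share of member exons lower was 100% with MLN8237, where only 1 exon was left, against 18.2% as reported, and 82.1% after SRSF2 depletion against 65.7%. With control values of 20 to 80 it was 0% of 7 exons with MLN8237 and 87.9% after SF3B5 depletion. The members' share of the genes listed after SRSF3 depletion was 3.31% with changes of at least 25 points, against 4.64%. The restriction to genes with a pair of finger patterns used GENCODE coding sequences in place of RefSeq proteins, was chosen after the data were seen and moved no share. No paired analysis was possible because the deposited tables hold group averages only. For the same reason no replicate could be left out, and the depth limits of single values are unknown.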
